A study of Mus musculus with 9 samples.

Results

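Rasgrp1, Nexn, Strip2, Dio2, Lypd1, Sh3gl2, Dbpht2 and Zfp503 are 8 genes, of 22268 present in both deposited tables, that were chosen because they were much lower than wild type in newborn mouse cortex after activation of Sonic hedgehog (SHH) signalling and lie outside the usual list of striatal neuron markers. They were found by gene name, and 8 of 8 were present in both tables. The choice rested on the differences from wild type in both intervention groups, so those differences are given as a description with no test. The name under which the genes were grouped, a steep shared fall, did not hold for Sh3gl2: it was 3.49-fold lower than wild type in the SmoM2 cortex, but its ShhN IUE libraries overlapped the wild-type libraries. All 9 libraries are bulk RNA of cortex dissected at postnatal day 0 from mice of a mixed C57BL/6J, 129S6 and CD1 background. There were 3 libraries from wild-type littermates, 3 from brains labelled ShhN IUE and 3 from hGFAP-Cre, SmoM2f/+ brains. ShhN is the amino-terminal signalling fragment of SHH, delivered by in utero electroporation, which reaches a patch of the tissue, and no group was labelled as electroporated without it, so ShhN and the procedure cannot be told apart. SmoM2, a constitutively active Smoothened (the membrane protein that passes the SHH signal on), is expressed after Cre recombination under the human GFAP promoter, which is active in radial glia and their progeny. The labels do not say whether replicates are separate animals or pools, and p-values therefore rest on a spread between libraries that may be technical.

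The 8 genes belong to different molecular systems. Dio2 encodes the deiodinase that converts the prohormone T4 to the active thyroid hormone T3, and in the brain it is known as the enzyme that supplies T3 locally. Rasgrp1 is a diacylglycerol- and calcium-responsive exchange factor that loads Ras with GTP. Strip2 is a subunit of STRIPAK, the striatin complex that joins a phosphatase to kinases, Lypd1 is a GPI-anchored LY6 protein that binds nicotinic acetylcholine receptors, and Sh3gl2 is endophilin A1, which bends membrane during synaptic vesicle endocytosis. Nexn encodes nexilin, an actin-binding protein best known from heart muscle, Zfp503 (also called Nolz1) is a zinc-finger repressor of the NET family known from the developing striatum, and Dbpht2 has a name that refers to a DNA-binding protein but no role here that can be stated with confidence. Bulk RNA cannot tell fewer cells of a type from less RNA per cell.

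Promoters are shown for 4 of the genes, 2 pairs that each hold a short motif in common. RefSeq gave a 300-base window, 250 bases before to 50 after the transcript start (assembly GRCm38.p6), for 7 of the 8 genes, with 3 windows for Lypd1. Lypd1 counts as a match if any of its windows holds the motif, whereas the shares given below are per window. Dio2 lies on the minus strand with its window at chr12:90738989-90739288, Sh3gl2 on the plus strand at chr4:85205206-85205505, Rasgrp1 on the minus strand at chr2:117342828-117343127 and Dbpht2 on the plus strand at chr12:74297224-74297523. Each is printed 5′ to 3′ along its gene, and capitals mark every match to a searched motif on either strand.
Dio2 promoter: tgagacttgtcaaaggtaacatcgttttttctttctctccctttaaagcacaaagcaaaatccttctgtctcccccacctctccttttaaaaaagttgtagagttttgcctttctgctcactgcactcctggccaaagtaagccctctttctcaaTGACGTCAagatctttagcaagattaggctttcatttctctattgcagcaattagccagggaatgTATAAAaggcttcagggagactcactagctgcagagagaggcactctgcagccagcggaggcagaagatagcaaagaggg
Sh3gl2 promoter: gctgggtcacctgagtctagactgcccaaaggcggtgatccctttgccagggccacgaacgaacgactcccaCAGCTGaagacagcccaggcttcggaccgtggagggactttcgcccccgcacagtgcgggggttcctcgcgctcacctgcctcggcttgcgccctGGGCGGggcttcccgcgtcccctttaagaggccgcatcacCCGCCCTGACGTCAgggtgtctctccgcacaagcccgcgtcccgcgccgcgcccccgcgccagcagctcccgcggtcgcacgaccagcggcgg
Rasgrp1 promoter: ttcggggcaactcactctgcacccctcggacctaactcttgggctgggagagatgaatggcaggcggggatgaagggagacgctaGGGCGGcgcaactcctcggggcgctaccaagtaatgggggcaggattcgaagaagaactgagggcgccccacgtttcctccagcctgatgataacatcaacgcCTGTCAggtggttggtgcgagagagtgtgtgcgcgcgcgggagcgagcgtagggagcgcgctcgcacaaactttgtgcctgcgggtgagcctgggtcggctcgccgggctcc
Dbpht2 promoter: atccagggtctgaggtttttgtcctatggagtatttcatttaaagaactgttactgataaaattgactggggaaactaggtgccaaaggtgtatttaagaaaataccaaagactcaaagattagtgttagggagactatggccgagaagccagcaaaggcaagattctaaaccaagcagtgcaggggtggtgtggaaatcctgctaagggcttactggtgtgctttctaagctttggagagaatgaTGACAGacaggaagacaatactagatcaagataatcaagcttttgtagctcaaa
The cyclic AMP response element TGACGTCA was found in Dio2, beginning 95 bases before the RefSeq start, and in Sh3gl2, beginning 37 bases before it. Of 32851 mouse promoter windows 1.79% hold this element. The RefSeq starts of Dio2 and Sh3gl2 are not those of the counted genes. The Dio2 window lies wholly outside the counted gene (chr12:90724554-90738438), and the Sh3gl2 window wholly inside its counted gene (chr4:85205126-85639195). The motif TGACGTCA was added to the search after the sequences had been read, so nothing is read from its presence in both genes. Dio2 also holds a TATA box (TATAAA) beginning 30 bases before the start, a motif found in 13.6% of windows. Other short motifs were shared, namely the MEIS core TGACAG in Dbpht2, Lypd1 and Rasgrp1 (19.2% of windows), the GC box GGGCGG in Lypd1, Rasgrp1, Sh3gl2 and Strip2 (35.7%), and CCAAT in Lypd1 and Strip2 (37.4%). The letters CAGCTG occurred in Lypd1 and Sh3gl2 (16.3%). In Sh3gl2 the reverse strand of a GC box runs directly into the TGACGTCA. Of the 7 genes, 0 had a match to the GLI site TGGGTGGTC (0.253% of windows), and 0 had one to the EBF motif, the homeodomain core TAATTA, the E-box CAGATG or the nuclear receptor core AGGTCA. The windows differ in composition, with 34 CG dinucleotides in Sh3gl2, 26 in Rasgrp1, 3 in Dio2 and 1 in Dbpht2, against a median of 7 over all windows. A match describes letters only and shows no binding.

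Library totals were 18610507 to 21694348 counts in wild type (ShhN IUE table), 15376071 to 19604672 in ShhN IUE and 23625702 to 26923127 in SmoM2. Levels are in CPM, counts relative to the TMM-scaled library size, and n is 3 libraries for every mean ± SD. The same wild-type libraries were quantified separately in each table, so each intervention was set against the wild type of its own table and the comparisons share their controls. Gli1 and Ptch1, transcribed in response to SHH, were higher in both interventions. Gli1 differed from wild type by 2.44 ± 0.40 (log2 ± SE, edgeR adjusted p = 0.00369) in ShhN IUE and by 2.63 ± 0.18 (adjusted p = 0.000159) in SmoM2, and Ptch1 by 2.17 ± 0.37 and 2.80 ± 0.18. ShhN IUE replicate 3 stood apart, with 1100 Gli1 counts against 512 and 466 in the other libraries, and 455 Shh counts against 51 and 52. Wild type had 36, 62 and 31 Shh counts, so in CPM ShhN IUE replicates 1 and 2 (2.59 and 3.09) lay near wild type (1.70 to 2.82), and Shh, the delivered gene, did not pass (log2 2.40 ± 0.89, adjusted p = 0.0693). Without ShhN IUE replicate 3 the Gli1 difference in ShhN IUE was 1.84. The pyramidal neuron marker Neurod6 was present throughout, at 477 to 687 CPM, so that the labelled tissue is borne out by it.

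**Figure D1:**
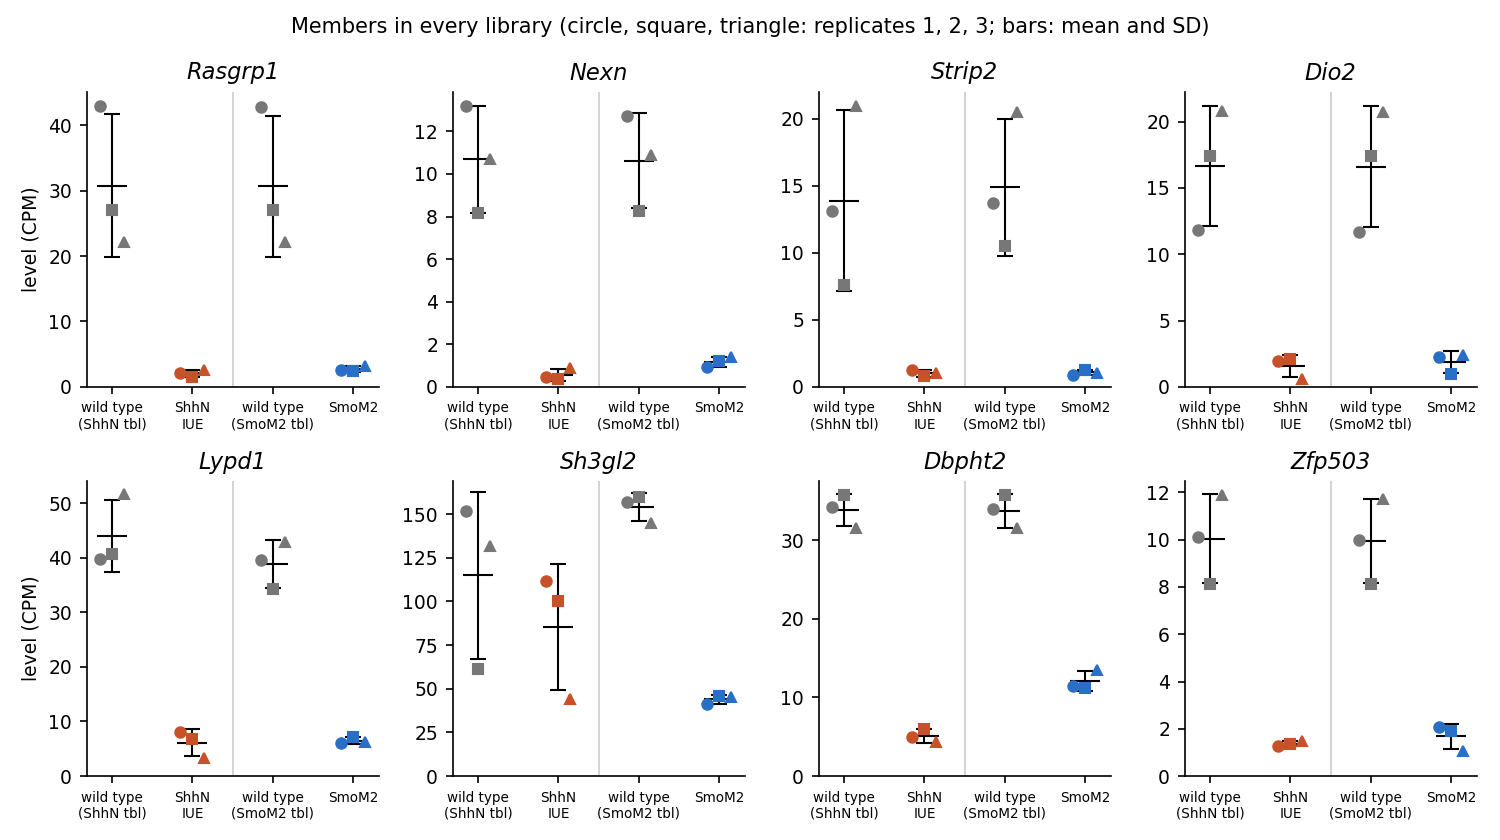
Level in CPM (vertical axis from 0, its own range per gene) of the 8 genes in every library, by group (horizontal axis), with wild type shown as quantified in each table; symbols are replicates and bars the mean and SD. The ShhN IUE and SmoM2 libraries lie below every wild-type library except for Sh3gl2 in the ShhN IUE table, where wild-type replicate 2 (61.1 CPM) lies below 2 ShhN IUE libraries.

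Dio2, the T3-producing enzyme, kept 9.39% of its wild-type level in ShhN IUE and 11.2% in SmoM2. The gene (ENSMUSG00000007682) lies on the minus strand of chromosome 12 at chr12:90724554-90738438 (GRCm38). Wild-type libraries had 11.8, 17.4 and 20.8 CPM (mean 16.6 ± 4.54), and ShhN IUE libraries had 1.98, 2.08 and 0.626 CPM. The lowest value is the 10 counts of ShhN IUE replicate 3, the library with the most Shh. SmoM2 libraries had 2.28, 0.932 and 2.38 CPM, of which replicate 2, with 22 counts, is the low one. The groups did not overlap, and the log2 difference from wild type was -3.40 ± 0.42 (10.5-fold lower) in ShhN IUE and -3.14 ± 0.36 (8.84-fold lower) in SmoM2.

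The thyroid hormone list held 16 further genes of hormone supply and response. In ShhN IUE 4 of 14 tested fell and 2 rose, where 17.2% of all 16180 genes fell and 16.1% rose by the same edgeR rule (adjusted p under 0.05). In SmoM2 5 of 15 fell and 2 rose, against 9.29% and 9.59% of 16485 genes. With SmoM2 replicate 3 left out, 2 of the 15 fell and 1 rose. The median log2 difference of the list was -0.33 in ShhN IUE and 0.04 in SmoM2, against -0.0038 and -0.0072 over all genes. The genes that fell included Klf9, a transcription factor gene induced by T3, which went from 52.2 ± 5.51 to 25.5 ± 3.02 CPM in ShhN IUE (log2 -1.03 ± 0.14, adjusted p = 0.00166) and from 51.7 ± 5.67 to 21.3 ± 1.06 CPM in SmoM2 (log2 -1.28 ± 0.11, adjusted p = 0.000407). Rxrg, a retinoid X receptor that can pair with thyroid hormone receptors, fell by 2.67 and 2.36 on the log2 scale (adjusted p = 0.00206 and 0.000767). Thrb, the beta thyroid hormone receptor, fell by 2.05 in ShhN IUE (adjusted p = 0.0022) and by 1.38 in SmoM2 (adjusted p = 0.0105, and 0.0546 without SmoM2 replicate 3). Thra, the alpha receptor, differed by 0.29 ± 0.10 in ShhN IUE, a call (adjusted p = 0.0477) lost in 6 alternatives, wild-type replicates 2 and 3 and each ShhN IUE replicate among the libraries left out, and by 0.10 ± 0.10 in SmoM2 (adjusted p = 0.551).

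Dio3, the deiodinase that inactivates T4 and T3, changed in the opposite direction to Dio2 in SmoM2. It had 3, 6 and 0 counts in wild type and 74, 53 and 34 counts in SmoM2, with no overlap. Its log2 difference was 3.76 ± 0.62 (adjusted p = 0.00532, and up to 0.025 over the alternatives), a value that rests on few wild-type counts and was 4.62 without wild-type replicate 2. In the ShhN IUE table Dio3 had 5, 6 and 0 counts in wild type and 4, 8 and 7 in ShhN IUE, too few to pass the expression filter. It was therefore not tested there, and the difference between the interventions in Dio3 was not tested.

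Rasgrp1 was 15-fold lower in ShhN IUE and 11.2-fold lower in SmoM2. It lies on chromosome 2 at chr2:117279993-117343001, minus strand (ENSMUSG00000027347). Wild-type levels were 43.0, 27.1 and 22.2 CPM (mean 30.8 ± 10.8), ShhN IUE levels 2.08, 1.48 and 2.57 CPM, and SmoM2 levels 2.57, 2.41 and 3.18 CPM. The lowest wild-type library was thus 8.67 times the highest ShhN IUE library. The log2 differences were -3.91 ± 0.32 and -3.49 ± 0.27.

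The other Rasgrp exchange factors, chosen here as paralogs with their values seen, differed from wild type by much smaller amounts. Rasgrp2 differed by -0.40 ± 0.14 in ShhN IUE (adjusted p = 0.0556) and by -0.57 ± 0.11 in SmoM2 (adjusted p = 0.00904, and 0.0575 without SmoM2 replicate 3). Rasgrp3 differed by -0.16 ± 0.19 and 0.12 ± 0.17, and Rasgrp4 by 0.39 ± 0.28 and 0.16 ± 0.30, with adjusted p from 0.308 to 0.745. Of the 18 further Ras regulators and Ras GTPases tested, 7 fell and 1 rose in ShhN IUE, and 4 fell and 1 rose in SmoM2 (2 fell and 0 rose without SmoM2 replicate 3). Over all genes 17.2% fell and 16.1% rose in ShhN IUE and 9.29% and 9.59% in SmoM2, and the list's medians were -0.37 and 0.00. Rasal1, a calcium-responsive GTPase-activating protein that switches Ras off, fell by 2.78 (adjusted p = 0.00165) and by 2.68 (adjusted p = 0.00217) on the log2 scale. Rasgrf1, a calcium-responsive Ras exchange factor, had 16.6, 14.6 and 4.83 CPM in wild type and 1.47, 0.297 and 4.01 CPM in ShhN IUE. Its log2 difference of -2.65 ± 0.76 there passed (adjusted p = 0.0299) but not without wild-type replicate 1 or 2 or ShhN IUE replicate 1 (adjusted p up to 0.0945 over the alternatives), and it was -3.71 without ShhN IUE replicate 3. In SmoM2 Rasgrf1 fell by 2.99 (adjusted p = 0.00457).

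Strip2, on chromosome 6 at chr6:29917012-29959681, plus strand (ENSMUSG00000039629), was lower by nearly the same factor in both interventions. In the ShhN IUE table wild type had 13.1, 7.59 and 21.0 CPM and ShhN IUE 1.27, 0.772 and 1.00 CPM. In the SmoM2 table wild type had 13.7, 10.5 and 20.5 CPM and SmoM2 0.917, 1.27 and 1.04 CPM. The wild-type libraries spread more than the interventions' did, and replicate 3 was the high one in both tables. The log2 difference was -3.76 ± 0.42 in ShhN IUE and -3.79 ± 0.30 in SmoM2.

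The rest of STRIPAK counted 5 genes lower and 1 higher of 16 in ShhN IUE, and 1 lower and 0 higher of 16 in SmoM2, where 17.2% and 9.29% of all genes were lower. The list's medians were -0.28 and -0.07. Without ShhN IUE replicate 2 or 3 or wild-type replicate 3 the count lower in ShhN IUE was 3. Stk26, a germinal centre kinase that docks on the complex, was the gene that passed in both. It went from 3.69 ± 1.27 to 0.346 ± 0.0365 CPM in ShhN IUE (log2 -3.40 ± 0.38, adjusted p = 0.00104) and from 3.62 ± 1.31 to 0.869 ± 0.531 CPM in SmoM2 (log2 -2.06 ± 0.46, adjusted p = 0.0174). The SmoM2 call was lost, leaving 0 of 16, without wild-type replicate 3, SmoM2 replicate 1 or SmoM2 replicate 3, and the difference was -2.66 without SmoM2 replicate 2. Pdcd10, which binds these kinases, and Ppp2ca, the catalytic phosphatase subunit, fell in ShhN IUE by 0.93 and 0.78 (adjusted p = 0.00199 and 0.00134). In SmoM2 they differed by -0.06 ± 0.12 (adjusted p = 0.749) and -0.22 ± 0.07 (adjusted p = 0.0725).

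Lypd1, on chromosome 1 at chr1:125867622-125913101, minus strand (ENSMUSG00000026344), was 7.17-fold lower in ShhN IUE and 6.01-fold lower in SmoM2. Against 39.7, 40.6 and 51.6 CPM in wild type, ShhN IUE libraries had 8.13, 6.82 and 3.32 CPM. Against 39.5, 34.2 and 42.9 CPM in the SmoM2 table, SmoM2 libraries had 5.98, 7.16 and 6.25 CPM. The SmoM2 libraries lay close together, and ShhN IUE replicate 3 was the lowest of all. The log2 differences were -2.84 ± 0.30 and -2.59 ± 0.14.

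Lypd1 overlaps Gpr39, a zinc-sensing receptor gene whose annotated span reaches into it. Gpr39 had 14, 18 and 17 counts in wild type and 0, 0 and 0 in ShhN IUE, and 14, 18 and 18 counts against 0, 3 and 9 in SmoM2. No label or header says whether counting used strand, so reads of the genes in the shared stretch cannot be told apart. Of the LY6 proteins and nicotinic receptor subunits, 2 of 11 fell in ShhN IUE, near the 17.2% of all genes, and 4 of 12 in SmoM2, against 9.29% of all genes, and 0 rose. The list's medians were -0.25 and -0.42. Lypd6b, a LY6 protein of the same kind, fell by 1.36 (adjusted p = 0.000866) and by 1.30 (adjusted p = 0.000641) on the log2 scale. Chrna7, the alpha-7 nicotinic receptor subunit, fell by 1.15 in SmoM2 (adjusted p = 0.012) and differed by -0.54 ± 0.32 in ShhN IUE (adjusted p = 0.22). Leaving out SmoM2 replicate 1 left 2 of the 12 called, and leaving out ShhN IUE replicate 2, wild-type replicate 1 or wild-type replicate 2 left 1 of the 11.

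Sh3gl2 is the gene that departed from the pattern. It lies on chromosome 4 at chr4:85205126-85639195, plus strand (ENSMUSG00000028488). In the SmoM2 table it had 157, 160 and 145 CPM in wild type and 41.2, 45.9 and 45.1 CPM in SmoM2, with the smallest spread of the 8 genes, and a log2 difference of -1.80 ± 0.09. In the ShhN IUE table it had 152, 61.1 and 132 CPM in wild type and 112, 100 and 44.0 CPM in ShhN IUE, so the groups overlapped, and the log2 difference was -0.43 ± 0.40. Of 16180 genes ordered from the steepest decrease it ranked 3867 there.

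The wild-type value of 61.1 CPM comes from a library that the tables count differently. For Sh3gl2 wild-type replicate 2 had 1344 counts in the ShhN IUE table and 3510 in the SmoM2 table, while replicates 1 and 3 had 2925 and 2399 in the first and 3043 and 2652 in the second. In that library 0.973% of 16548 genes with enough counts were more than 2-fold lower in the ShhN IUE table. With the wild-type counts of the other table, an alternative added after the data were seen, the difference was -0.84 in ShhN IUE and -1.39 in SmoM2. Leaving out any 1 library gave -0.73 to -0.10 in ShhN IUE and -1.83 to -1.75 in SmoM2. ShhN IUE replicate 3, with 703 counts against 2200 and 1686, was the low library of its group. The authors' deposited table gave Sh3gl2 a q-value of 0.434 in ShhN IUE, and called the other 7 genes down there and 8 of 8 down in SmoM2. Among all genes the authors called 1127 of 22496 down in ShhN IUE and 728 of 23624 in SmoM2. The 8 genes were chosen on these same contrasts, so nothing is read from the authors' calls of them.

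Among other endophilins and genes of clathrin endocytosis, 6 of 23 fell and 1 rose in ShhN IUE, and 4 of 23 fell and 0 rose in SmoM2, where 17.2% and 9.29% of all genes fell. The list's medians were -0.17 and -0.12. The ShhN IUE count was 3 without ShhN IUE replicate 2, and the SmoM2 count was 1, 1 and 0 with SmoM2 replicate 1, 2 or 3 left out. Sh3gl3, endophilin A3, differed by -0.41 ± 0.13 and -0.50 ± 0.10 (adjusted p = 0.0458 and 0.012). The first call was lost in 9 alternatives, each left-out library among them, and the second without SmoM2 replicate 3 (adjusted p = 0.0724). Sh3gl1, endophilin A2, differed by 0.27 ± 0.11 and 0.13 ± 0.10 (adjusted p = 0.0887 and 0.399). Synj1, the lipid phosphatase that endophilin recruits, fell by 0.56 in ShhN IUE (adjusted p = 0.00869) and differed by -0.13 ± 0.09 in SmoM2 (adjusted p = 0.352).

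Nexn, on chromosome 3 at chr3:152236982-152266350, minus strand (ENSMUSG00000039103), had the largest difference of the 8 in ShhN IUE. Wild-type libraries had 13.2, 8.18 and 10.7 CPM and ShhN IUE libraries 0.458, 0.356 and 0.877 CPM, the last resting on 14 counts and the others on 9 and 6. SmoM2 libraries had 0.917, 1.19 and 1.38 CPM (25, 28 and 36 counts) against 12.7, 8.28 and 10.9 CPM in wild type. Every intervention library was below every wild-type library, and the log2 differences were -4.24 ± 0.37 (18.9-fold lower) and -3.19 ± 0.25 (9.13-fold lower). Here ShhN IUE replicate 3 was the highest of its group, as it was for Rasgrp1 and Zfp503. That library was the lowest of the group for Dio2, Lypd1, Sh3gl2 and Dbpht2.

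Of 16 other genes of actin cross-linking and anchoring, 4 rose and 1 fell in ShhN IUE and 2 rose and 1 fell in SmoM2, where 16.1% and 9.59% of all genes rose. The list's medians were 0.14 and 0.07. The gene that fell in both was Actn2, the muscle-type alpha-actinin, with log2 differences of -1.11 (adjusted p = 0.0282) and -1.02 (adjusted p = 0.0355). Both Actn2 calls were lost in 5 alternatives, among them those without wild-type replicate 1 or 3, ShhN IUE replicate 1 or 3, and SmoM2 replicate 1 or 2, with adjusted p up to 0.0952 and 0.12. Synpo, synaptopodin, rose by 0.95 in ShhN IUE (adjusted p = 0.00695) and differed by 0.31 ± 0.31 in SmoM2 (adjusted p = 0.517). Without ShhN IUE replicate 1 or 3 the counts in ShhN IUE were 2 up and 0 down, and in SmoM2 they were 0 and 0 without SmoM2 replicate 1 and 0 up and 1 down without SmoM2 replicate 3.

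Zfp503, on chromosome 14 at chr14:21983962-21989601, minus strand (ENSMUSG00000039081), was 7.25-fold lower in ShhN IUE and 5.90-fold lower in SmoM2. Wild-type libraries had 10.1, 8.13 and 11.9 CPM and ShhN IUE libraries 1.27, 1.36 and 1.5 CPM, the tightest ShhN IUE values of the 8 genes in CV (8.45%). SmoM2 libraries had 2.06, 1.91 and 1.07 CPM against 8.14 to 11.7 CPM in wild type. Replicate 3 was the low SmoM2 library, with 28 counts, and neither comparison overlapped. The log2 differences were -2.86 ± 0.25 and -2.56 ± 0.28. Its NET-family paralog Zfp703 differed by -0.21 ± 0.11 (adjusted p = 0.168) and -0.20 ± 0.11 (adjusted p = 0.245).

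Zfp503 was lower while other transcription factors of the lateral ganglionic eminence, the embryonic source of striatal neurons, were higher. Of 16 Groucho partners and eminence factors, 7 rose and 3 fell in ShhN IUE, and 5 rose and 3 fell in SmoM2, where 16.1% and 9.59% of all genes rose. Sp8 rose by 2.95 and 2.88 (adjusted p = 0.000401 and 4.8e-05), Sp9 by 1.14 and 1.55 (adjusted p = 0.00545 and 0.000641), and Gsx2 by 2.42 and 1.56 (adjusted p = 0.00099 and 0.00438). Rarb, a retinoic acid receptor of striatal neurons that is also on the striatal list, fell by 3.34 and 2.74 (adjusted p = 0.00256 and 0.000755), with a difference of -4.14 without ShhN IUE replicate 3. Tle4, a Groucho co-repressor of deep-layer neurons, fell by 1.21 and 0.94 (adjusted p = 0.00107 and 0.00217).

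Of the 5 genes tested between the interventions, Dbpht2 was the 1 that passed, where 16.5% of all tested genes were called. It lies on chromosome 12 at chr12:74297474-74300468 in the tables, plus strand (ENSMUSG00000029878), and is annotated as a lincRNA in GENCODE but as protein-coding in RefSeq. Its wild-type counts were 659, 786 and 575 in both tables, 34.2, 35.7 and 31.6 CPM. ShhN IUE libraries had 4.93, 5.99 and 4.32 CPM and SmoM2 libraries 11.5, 11.2 and 13.5 CPM. The SmoM2 libraries lay between the others and overlapped neither, and the log2 differences from wild type were -2.73 ± 0.16 (6.65-fold lower) and -1.48 ± 0.12 (2.80-fold lower). The next gene at lower coordinates, 1700086L19Rik, ends 1.5 kb away and also fell, by 1.52 (adjusted p = 0.00475) and 0.92 (adjusted p = 0.00964, and 0.0519 without SmoM2 replicate 3).

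**Figure D2:**
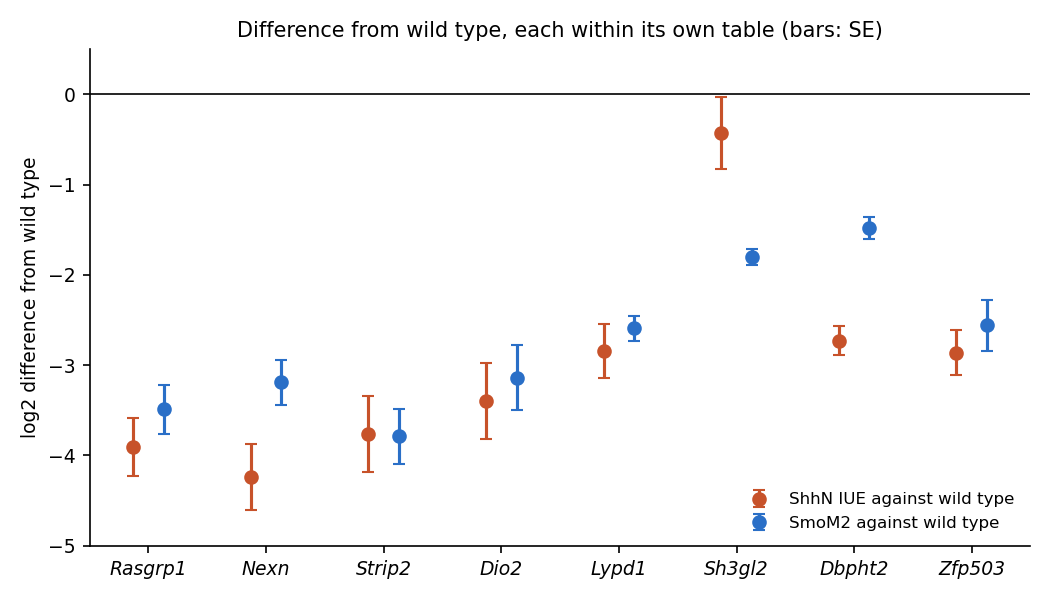
Log2 difference from wild type (vertical axis) for each of the 8 genes (horizontal axis) in ShhN IUE and SmoM2, each within its own table; points are edgeR estimates and bars SE. In ShhN IUE 7 genes lie between -4.24 and -2.73 and Sh3gl2 at -0.43, and in SmoM2 they run from -3.79 (Strip2) to -1.48 (Dbpht2).

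Set side by side, the ShhN IUE libraries lay below the wild-type libraries without overlap for 7 of 8 genes, where 24.9% of all tested genes did so. The SmoM2 libraries did so for 8 of 8, where 19.7% did. The genes were chosen on these contrasts, so nothing is read from these counts. All 8 passed the expression filter in each table. Their median log2 difference was -3.13 in ShhN IUE and -2.86 in SmoM2. In ShhN IUE they kept 5.28% (Nexn) to 74.3% (Sh3gl2) of the wild-type mean CPM, and in SmoM2 7.22% (Strip2) to 35.8% (Dbpht2).

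Wild-type levels per transcript length, as the deposited FPKM, ran from Sh3gl2 at 15.4 ± 6.10 in the ShhN IUE table and 21.0 ± 1.36 in the SmoM2 table, through Dbpht2 at 11.1 ± 0.902 and Lypd1 at 4.22 ± 0.628, to Nexn at 1.38 ± 0.288 and Strip2 at 1.03 ± 0.492. Between these lay Rasgrp1 (3.27 ± 1.09 FPKM), Dio2 (2.82 ± 0.795 FPKM) and Zfp503 (2.34 ± 0.407 FPKM), whose ranges overlap one another, as do those of Nexn and Strip2. The range of Lypd1 overlaps that of Rasgrp1, and in the ShhN IUE table the range of Sh3gl2 (8.53 to 20.1 FPKM) takes in that of Dbpht2 (10.3 to 12.1 FPKM). The genes also differed in how steady they were between wild-type libraries. The coefficient of variation of CPM in the ShhN IUE table was 48.4% for Strip2, 41.5% for Sh3gl2 and 35.2% for Rasgrp1 but 6.17% for Dbpht2, against a median of 14% over all genes. Wild-type replicate 1 was the highest library for Rasgrp1 and Nexn and the lowest for Dio2, while replicate 3 was the highest for Strip2, Dio2, Lypd1 and Zfp503.

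The interventions were tested against each other over the 9 libraries and the 12349 tested genes whose wild-type counts agreed between tables. Because the choice was for low levels in both interventions in these same libraries, this contrast is not independent of it. Its p-values for the chosen genes are therefore a description. Dbpht2 was higher in SmoM2 than in ShhN IUE by 1.23 ± 0.15 on the log2 scale (2.35-fold, 95% interval 0.90 to 1.57, edgeR adjusted p = 0.000974). It was higher in every SmoM2 library than in every ShhN IUE library, and the difference stayed between 1.13 and 1.37 (adjusted p 0.00149 to 0.00681) with any 1 library left out. That is 1 of 5 genes called, where 16.5% of all tested genes were called in either direction. Nexn was higher in SmoM2 by 1.04 ± 0.35 (95% interval 0.26 to 1.82), also without overlap, but did not pass (adjusted p = 0.0681). Without ShhN IUE replicate 3 the Nexn difference was 1.47 with adjusted p = 0.026.

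For the remaining genes no difference between the interventions was detected, with intervals that leave room for sizeable ones. Rasgrp1 differed by 0.40 ± 0.29 (95% interval -0.24 to 1.04, adjusted p = 0.367) and Zfp503 by 0.27 ± 0.28 (-0.35 to 0.90, adjusted p = 0.541). Dio2 differed by 0.23 ± 0.45 (-0.76 to 1.23, adjusted p = 0.758), and by -0.13 without ShhN IUE replicate 3. Strip2, Lypd1 and Sh3gl2 were not among the genes with agreeing wild-type counts. With the tolerance on agreement widened from 0.1 to 0.2 (log2), Strip2 differed by 0.06 ± 0.36 (-0.73 to 0.85, adjusted p = 0.926) and Lypd1 by 0.06 ± 0.26 (-0.51 to 0.64, adjusted p = 0.89). Sh3gl2 has no test of this difference.

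**Figure D3:**
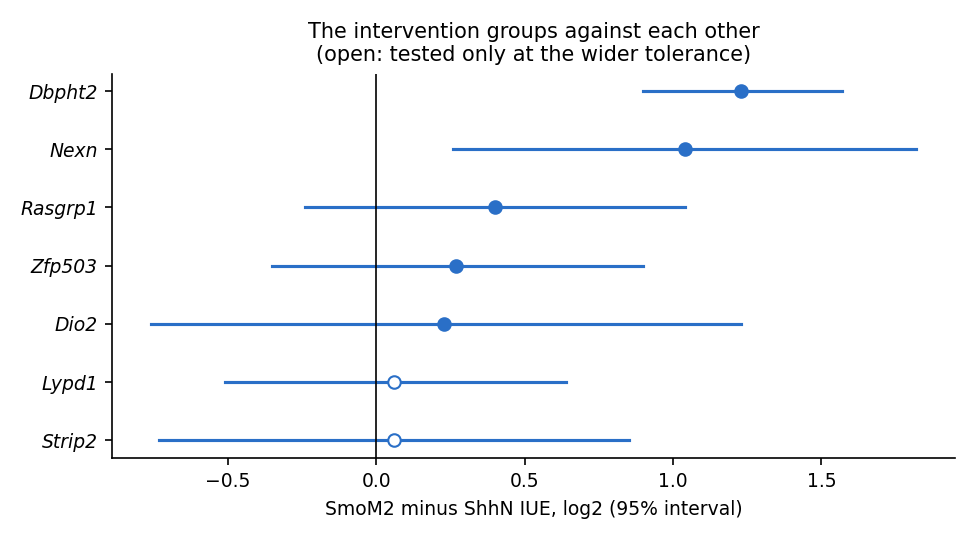
Difference between the interventions, SmoM2 minus ShhN IUE on the log2 scale (horizontal axis), for the 7 genes that could be fitted (vertical axis); points are edgeR estimates, lines 95% intervals, and open points are from the fit with the wider tolerance. The intervals of Dbpht2 (0.90 to 1.57) and Nexn (0.26 to 1.82) lie above 0 and the other 5 span it.

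The profile of a gene was its log2 CPM in the 9 libraries minus the wild-type mean, and likeness was the root mean square difference between profiles. Among the 5 genes in the joint table the closest pair was Rasgrp1 and Nexn (0.34) and the most distant Rasgrp1 and Dbpht2 (1.33). Of 8353 other genes with enough expression in wild type, the nearest to Dio2 was Drd2 (0.37), the D2 dopamine receptor of striatal neurons. Zfp503 was nearest to Rxrg (0.39), Rasgrp1 to the homeobox gene Six3 (0.56), Nexn to Rarb (0.58) and Dbpht2 to Igsf5 (0.27). The 5 genes nearest to the median profile were Crabp1, Itpka, Cxcl14, Slc35f3 and Lin28b, at 0.46 to 0.53. Drd2, Six3 and Rarb are on the list of striatal markers. The likeness is over 9 libraries in 3 groups, which carry most of the variation. The genes were chosen for lying far below wild type in these same libraries. Their nearest profiles therefore had to be those of genes that fell likewise, and nothing is read from which genes these are.

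**Figure D4:**
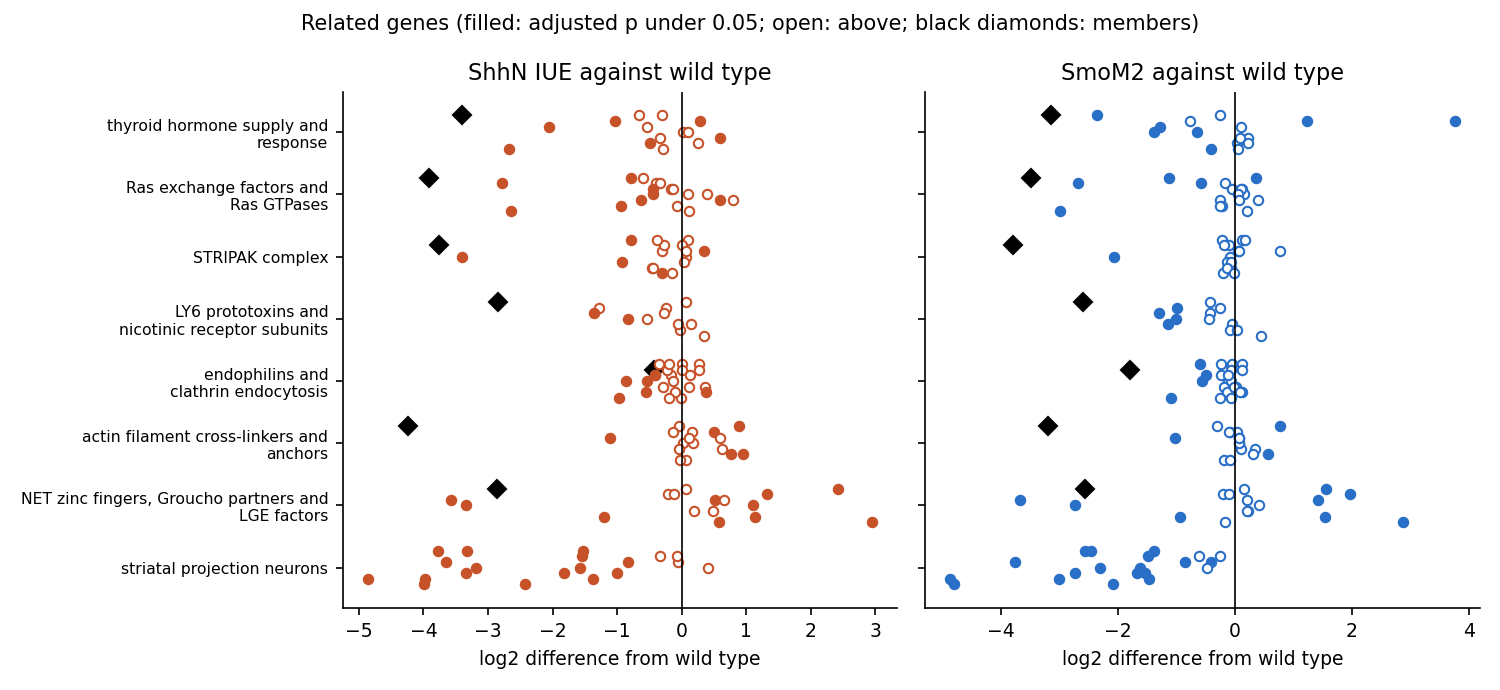
Log2 difference from wild type (horizontal axis) of every tested gene in 7 lists of related genes and in the striatal neuron list (rows), in ShhN IUE (left) and SmoM2 (right); filled points passed edgeR at an adjusted p of 0.05, open points did not, and black diamonds are 7 of the 8 chosen genes, all but Dbpht2. The medians of the 7 related lists lie from -0.37 to 0.50 in ShhN IUE and from -0.42 to 0.21 in SmoM2. Of 20 striatal markers 16 passed as lower in ShhN IUE and 17 in SmoM2, where 17.2% and 9.29% of all genes did.

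Markers of striatal and deep-layer neurons were mostly lower too, and the part of any cell type in the differences was not tested. Over all genes 17.2% fell and 16.1% rose in ShhN IUE, and 9.29% and 9.59% in SmoM2. Of 20 striatal projection neuron markers 16 fell in ShhN IUE and 17 in SmoM2, and 0 rose. Tac1, the substance P precursor, fell with log2 differences of -4.86 and -4.87 (adjusted p = 0.000401 and 8.1e-05), and Drd2 with -3.65 and -3.76 (adjusted p = 0.000884 and 0.000826). The summed level of the 20 striatal markers was 669 to 833 CPM in wild type and 473 to 587 CPM in ShhN IUE, and 840 to 1000 CPM against 516 to 540 CPM in the SmoM2 table. Of 15 deep-layer pyramidal markers 9 fell and 0 rose in ShhN IUE and 8 fell and 1 rose in SmoM2, with sums of 1580 to 1980 CPM against 1090 to 1270 CPM, and 1620 to 1950 CPM against 1070 to 1200 CPM. Tbr1, a deep-layer transcription factor, fell by 0.81 (adjusted p = 0.0114) and 1.00 (adjusted p = 0.000655).

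The shares over all genes were again 17.2% lower and 16.1% higher in ShhN IUE, and 9.29% and 9.59% in SmoM2. Of 13 upper-layer markers tested 4 fell and 1 rose in ShhN IUE, and 6 fell and 2 rose in SmoM2. Their sums overlapped, at 3200 to 4130 CPM in wild type against 2490 to 3260 CPM in ShhN IUE, and did not in the SmoM2 table, at 3380 to 4380 CPM against 3150 to 3220 CPM. Plxnd1, a semaphorin receptor on that list, fell by 1.13 and 1.77 (adjusted p = 0.00175 and 8.1e-05). Of 16 pan-neuronal genes 6 fell and 1 rose in ShhN IUE. In SmoM2 2 of these genes fell and 2 rose, near the shares over all genes (1 fell without SmoM2 replicate 1 or 3 or wild-type replicate 1 or 2). Their sums overlapped in both tables, at 9930 to 11900 CPM in wild type against 9650 to 11200 CPM in ShhN IUE, and at 9090 to 10400 CPM against 8890 to 9680 CPM in SmoM2. Cycling-cell genes went the other way, with 17 of 18 higher in ShhN IUE and 18 of 18 in SmoM2. Their sums were 281 to 342 CPM in wild type against 698 to 809 CPM in ShhN IUE, and 281 to 335 CPM against 608 to 825 CPM in SmoM2. No marker of these lists that was tested was at 0 in a whole group. The lists share Foxp2, Rarb, Tle4 and Crym with one another or with the pathway lists.

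Leaving Gpr39 aside, 3 of the 15 nearest genes on either side of the 8 fell and 2 rose in ShhN IUE and 3 fell and 0 rose in SmoM2, where 17.2% and 9.29% of all genes fell, with log2 differences from -1.52 to 0.75 and from -0.95 to 0.38. Of the SmoM2 calls Kcnma1, a potassium channel gene (adjusted p = 0.0499), was lost with each library left out, and 1700086L19Rik without SmoM2 replicate 3. In ShhN IUE Kcnma1 (adjusted p = 0.0178) was lost without wild-type replicate 3 (adjusted p = 0.0513). Fubp1, which ends 0.2 kb from Nexn, differed by 0.30 ± 0.09 and 0.32 ± 0.13, and Fam98b, 8.5 kb from Rasgrp1, by -0.16 ± 0.12 and 0.02 ± 0.09. Nckap5, 0.5 kb from Lypd1, differed by -0.02 ± 0.14 and -0.20 ± 0.10.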

How the data were processed

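Bulk cortex RNA was measured in 9 libraries, grouped by their titles. The authors deposited 2 tables, each with a read count and an FPKM value per gene and library and, per the file headers, a p-value and q-value of their own comparison. Per the submitters' processing notes, the reads went through HISAT2, StringTie and edgeR, and GRCm38.p4 and mm10 are the named builds. No source used here says how reads shared by gene copies or strands were assigned.

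The deposited counts entered edgeR 4.0.16 (R 4.3.3; quasi-likelihood F test, TMM, filterByExpr by group), over all genes of a table, with Benjamini-Hochberg adjusted p and a threshold of 0.05. SE was derived from the F statistic, and 95% intervals from the t distribution with the fit's degrees of freedom. SmoM2 and ShhN IUE were compared in a fit of 9 libraries over 16195 genes whose summed wild-type counts (5 added) agreed between tables within 0.1 on the log2 scale, with wild-type counts averaged. Of the 8 genes 5 were among them. Profiles used log2 CPM with a prior count of 2 and genes of at least 5 CPM in wild type.

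The genes, the lists and the tests were chosen with earlier results of these data known. Named genes are the 8, up to 3 per list by adjusted p (some are left out), nearest profiles, Gli1 and Ptch1. Paralogs, Shh, Neurod6 and flanking genes were named after their values were seen. Other settings tried were scaling by RLE or upper quartile, no expression filter or 1 CPM in 3 libraries, DESeq2 1.42.0, limma-voom (limma 3.58.1), the replicate block, each library left out, other tolerances, 6 libraries only and the deposited FPKM. In simulated counts with 200 changed genes, the share found by edgeR was 50.0% (2-fold) and 89.7% (4-fold) for ShhN IUE against wild type (15942 genes tested, with 4.2% of calls false) and 67.0% and 92.9% for SmoM2 against wild type (16282 genes, 6.6% false). Far more genes were called in the data (5380 in ShhN IUE and 3112 in SmoM2) than were changed in the simulation, so its shares may not carry over. Replicates differed beyond counting noise (chi-square per degree of freedom 17.7 to 36.9).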

Additional observations from a re-analysis of the deposited data

Results flagged for a closer look

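Dbpht2 met the test of a difference between the interventions: it was 1.23 higher (log2, SE 0.15) in SmoM2 than in ShhN IUE, with edgeR adjusted p = 0.000974. It was 1 of 5 genes tested, where 16.5% of all 12349 tested genes were called in either direction. Since the genes were chosen on both interventions, this test is not independent of the choice. ShhN IUE levels were 6.55 to 9.19 CPM and SmoM2 levels 17.0 to 20.4 CPM on the scale of the joint table, whose CPM are higher because fewer genes are counted.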

How the results depend on the processing

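Of 240 differences of the 8 genes from wild type under alternatives, 238 moved by less than the spread between replicates. The others came with the wild-type counts of the other table, added after the data were seen: Lypd1 in SmoM2 was -2.78 and Sh3gl2 in SmoM2 -1.39. Of 95 differences between SmoM2 and ShhN IUE, 93 kept their direction and their side of the threshold. The exceptions are Nexn, which passed without ShhN IUE replicate 3 (1.47), and Dio2, which was -0.13 there and -0.13 to 0.55 over the left-out libraries. Genes called numbered 5380 in ShhN IUE, 3112 in SmoM2 and 2043 between the interventions, and with 1 library left out 3251 to 4624, 1334 to 3010 and 838 to 2341. DESeq2 called 5808, 3632 and 2531. The replicate numbers do not pair the libraries (same-number correlations -0.322 to 0.278), and with the replicate block 3962, 2468 and 1521 genes were called. Of 624 list counts 88 moved by more than 1.5 times. Of 1443 values of genes named beside the 8, 86 lost their call and 12 gained one. Those that changed sign were uncalled: Pdcd10 in SmoM2 was 0.02 without SmoM2 replicate 1 (range with 1 library left out -0.15 to 0.02), and Rasgrp4 in SmoM2 was -0.04 without SmoM2 replicate 2 (range -0.04 to 0.41). By summed counts, Nexn (6 to 14 a library) and Strip2 (13 to 25) in ShhN IUE are the values with the least depth.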
